A study of Mus musculus with 5 samples.

Results

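In mature CD8 single-positive thymocytes, 26 of the 35976 genes in the count tables stood at no more than 2 CPM (counts of the gene per 1000000 counts of its library) in every Runx3 +/WRPW library and at 4 CPM or more in each Runx3 +/+ library. These 26 genes were chosen by that rule from the same libraries, after gene models named Gm with a number, names ending in Rik and the genes Ggt1, Lgals1, Klrd1, E2f2 and Ampd1 were set aside. Before any name was left out, 32 genes met the thresholds, and 9801 genes reached the minimum in the Runx3 +/+ libraries. Their difference between genotypes is therefore a description of how they were chosen, and no test is given for it. The opposite pattern, at least 4 CPM in each Runx3 +/WRPW library and at most 2 CPM in each Runx3 +/+ library, was met by 38 genes with no name left out.

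RNA was measured by bulk sequencing in mature CD8 thymocytes sorted from the mouse thymus by flow cytometry. There were 3 libraries of Runx3 +/WRPW cells, which carry the WRPW allele beside a wild-type Runx3 allele, and 2 of Runx3 +/+ cells. The labels give no age or strain and do not tell whether the libraries of a genotype came from different animals, so a p-value below speaks only of the variation among these 5 libraries, part of which may be technical. Every cell of the mutant group still has a wild-type copy of Runx3.

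Runx3 is a transcription factor of the Runt family that silences Cd4 and sets up the cytotoxic program of CD8 T cells. Runx proteins end in the peptide VWRPY, through which they recruit Groucho/TLE co-repressors, while WRPW is the form of that peptide at the end of the Hes family of repressors. Mature single-positive thymocytes proliferate before they leave the thymus. Genes of mitosis are known to be held down in resting cells through a promoter element called CHR, bound by complexes around the MuvB core, often near CCAAT boxes bound by NF-Y, and genes of DNA replication through E2F sites.

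Of the 26 genes, 13 encode proteins of the cell cycle and its chromosomes, namely Neil3, Kif18b, Mxd3, Nek2, Kif2c, Sgol1, Ankle1, Pbk, Ska3, Ttk, E2f7, Mastl and Troap. A further 3 are regulators of T cell activity (Foxp3, Ctla4 and Dusp4), 4 are enzymes or secreted proteins (Padi4, Man1c1, Tha1 and Podnl1), 3 act in signalling or membrane traffic (Snx9, Arhgef17 and Chn2) and 3 have a close copy elsewhere in the genome (Adam6b, Apol9b and Bambi-ps1). This sorting by role was made after the values were seen. RefSeq lists 25 of the 26 as protein coding and Bambi-ps1 as a transcribed pseudogene. They lie on 15 chromosomes, with 4 on chromosome 8 and 3 on chromosome 4.

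The promoters of 5 of the cell-cycle genes are shown because they hold the elements named above. Each runs from 250 bases before to 50 bases after the start of transcription that the RefSeq promoter table gives on assembly GRCm38.p6 (mm10), the most upstream one where it lists several, and is written 5′ to 3′ on the strand of the gene. Capitals mark the CHR words TTTGAA and TTCGAA, the CCAAT box CCAAT, the E2F words TTTCCCGC and TTTGGCGC and the Runx core words TGTGGT and TGCGGT on either strand. A match is a description of the letters and not a mapped binding site.
Kif18b: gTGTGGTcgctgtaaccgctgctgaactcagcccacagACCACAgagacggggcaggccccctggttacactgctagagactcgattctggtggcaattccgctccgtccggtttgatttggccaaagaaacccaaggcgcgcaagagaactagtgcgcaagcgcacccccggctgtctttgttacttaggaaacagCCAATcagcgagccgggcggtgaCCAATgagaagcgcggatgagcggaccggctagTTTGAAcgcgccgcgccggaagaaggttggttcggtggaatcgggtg
Sgol1: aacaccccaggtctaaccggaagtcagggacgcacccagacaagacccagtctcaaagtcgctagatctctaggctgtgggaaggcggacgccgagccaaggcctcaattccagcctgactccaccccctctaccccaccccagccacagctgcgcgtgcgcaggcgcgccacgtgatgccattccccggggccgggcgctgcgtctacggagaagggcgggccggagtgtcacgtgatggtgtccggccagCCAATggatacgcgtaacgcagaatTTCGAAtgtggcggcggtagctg
Ttk: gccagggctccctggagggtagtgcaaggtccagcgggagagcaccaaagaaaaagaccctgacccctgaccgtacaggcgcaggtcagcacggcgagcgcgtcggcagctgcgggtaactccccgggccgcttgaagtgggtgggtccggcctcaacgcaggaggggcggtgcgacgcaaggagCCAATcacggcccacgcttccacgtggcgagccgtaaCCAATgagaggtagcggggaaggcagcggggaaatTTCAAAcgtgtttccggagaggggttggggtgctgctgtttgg
Ska3: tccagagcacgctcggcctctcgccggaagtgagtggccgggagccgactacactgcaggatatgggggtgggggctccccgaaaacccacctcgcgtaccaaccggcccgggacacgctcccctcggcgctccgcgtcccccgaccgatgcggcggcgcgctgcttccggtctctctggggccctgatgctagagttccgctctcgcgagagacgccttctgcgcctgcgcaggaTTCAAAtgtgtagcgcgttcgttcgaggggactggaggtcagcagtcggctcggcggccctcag
E2f7: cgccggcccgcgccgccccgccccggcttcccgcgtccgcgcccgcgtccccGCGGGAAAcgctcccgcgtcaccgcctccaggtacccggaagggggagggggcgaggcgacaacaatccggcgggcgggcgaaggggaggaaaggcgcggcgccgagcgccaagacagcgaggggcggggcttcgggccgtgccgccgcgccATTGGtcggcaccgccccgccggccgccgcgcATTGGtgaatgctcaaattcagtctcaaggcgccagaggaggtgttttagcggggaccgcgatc
The Kif18b promoter is at chr11:102925075-102925374 and that of Sgol1, named Sgo1 in RefSeq, at chr17:53689266-53689565, both on the minus strand. Ttk is at chr9:83834439-83834738 on the plus strand, Ska3 at chr14:57826114-57826413 on the minus strand and E2f7 at chr10:110745189-110745488 on the plus strand. These starts need not be the outer end of the gene in the annotation: they lie within 200 bases of it for 18 of the 20 genes with a promoter, 128 bases inside it for Ska3, 2016 for Sgol1 and 3852 for Kif2c. Counted from these starts, the first base of the CHR word lies at position 4 in Kif18b, at 8 in Ttk and at 28 in Sgol1. It lies 14 bases before the start in Ska3. In Neil3 and Kif2c, whose promoters are not shown, it lies farther out, 202 and 103 bases before the start. E2f7 holds no CHR word in this window but an E2F word 198 bases before its start.

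Total counts were 43758550, 15715242 and 21857093 in Runx3 +/WRPW libraries 1, 2 and 3, and 21635675 and 25526389 in Runx3 +/+ libraries 1 and 2. Runx3 +/WRPW library 2 stood apart. Of 14743 genes at 0 in the other 4 libraries, 7350 (49.9%) had a count in it, with 540 of them over 2 CPM and a 95th percentile of 1.71 CPM, whereas the same measure was 1.40% to 3.19% of genes in each of the other 4. In this library 19 of the 26 genes stood at or below that 95th percentile, and it was the highest of the Runx3 +/WRPW libraries for 18 of the 26. The share of all genes for which this library was the highest was not computed. The part of this in their levels was not tested; without library 2 the median ratio of the 26 genes was 8.18-fold, against 7.58-fold with it. Runx3 itself averaged 388 ± 36.0 CPM in Runx3 +/WRPW and 310 ± 56.3 CPM in Runx3 +/+ (SD, n = 3 and 2; adjusted p = 0.234 by edgeR's quasi-likelihood test with Benjamini-Hochberg adjustment), and counts per gene do not separate the alleles. Cd8a averaged 2480 ± 153 CPM in Runx3 +/WRPW and 2375 ± 305 CPM in Runx3 +/+ (adjusted p = 0.860), and Cd8b1 had an adjusted p of 0.253 by the same edgeR test. Runx1 averaged 18.8 ± 5.34 CPM in Runx3 +/WRPW and 71.4 ± 25.8 CPM in Runx3 +/+ (adjusted p = 0.00963 in edgeR, and 0.0933 without Runx3 +/+ library 2).

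Reads of every one of the 26 genes were found in every mutant library. None had a count of 0 in any Runx3 +/WRPW library, and Snx9, with 1 count in library 3, was the only one at 3 counts or fewer. Counts behind the values ran from 12 to 71 in library 1, from 7 to 31 in library 2 and from 1 to 42 in library 3 of Runx3 +/WRPW, and from 89 to 2519 and from 115 to 747 in Runx3 +/+ libraries 1 and 2. The genes are thus described as low in Runx3 +/WRPW and not as switched off. In bulk RNA, fewer cells that express a gene and less RNA per cell cannot be told apart.

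The mean level was 0.316 to 1.66 CPM in Runx3 +/WRPW and 4.74 to 72.8 CPM in Runx3 +/+. The ratio of the Runx3 +/+ mean to the Runx3 +/WRPW mean ran from 2.90 (Bambi-ps1) to 66.8 (Padi4) with a median of 7.58, and 6 genes exceeded 10-fold. The lowest Runx3 +/+ library stood a median of 4.52 times above the highest Runx3 +/WRPW library, a separation that the rule guarantees. Per kilobase of exon the 26 genes had a median of 0.330 CPM in Runx3 +/WRPW and 2.49 CPM in Runx3 +/+. Padi4 was the highest in Runx3 +/+ on this per-length scale, at 15.1 CPM per kilobase, and E2f7 the lowest, at 0.599.

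**Figure D1:**
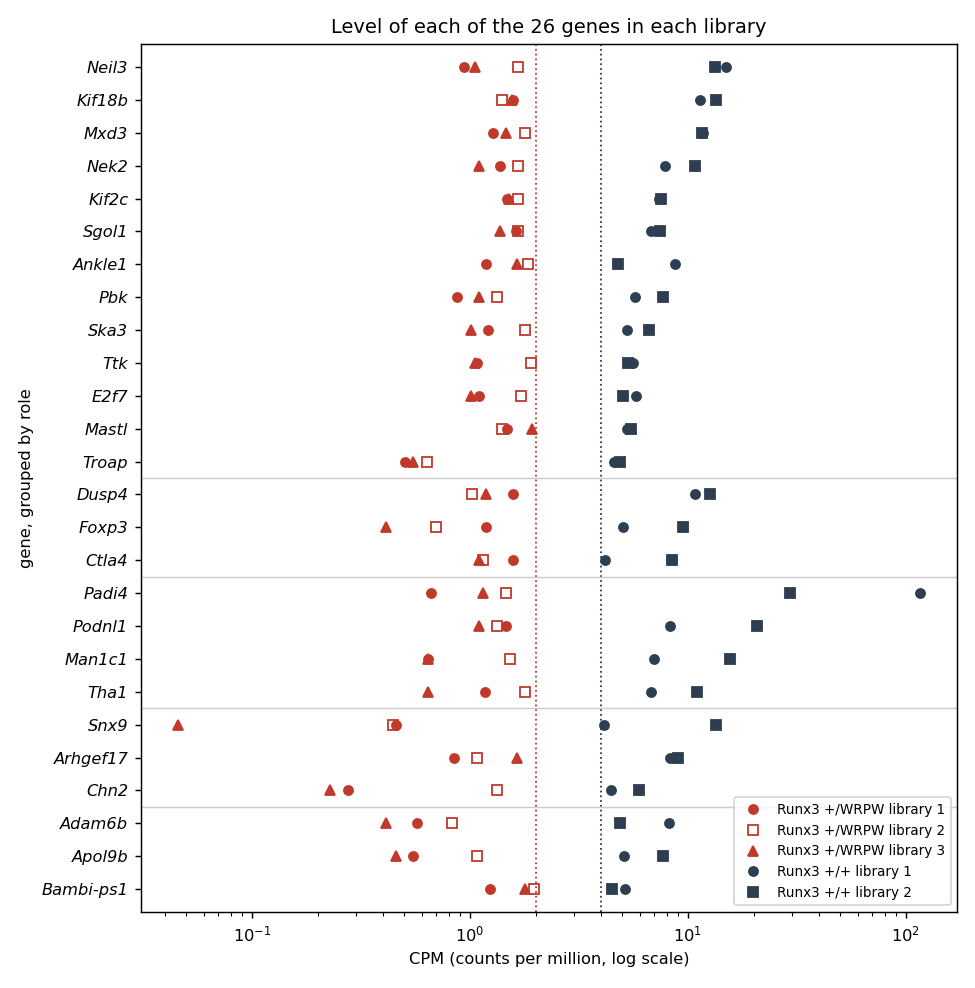
Level of each of the 26 genes in each library, in CPM on a log scale, with 3 Runx3 +/WRPW and 2 Runx3 +/+ libraries as separate points and genes grouped by role. Dotted lines mark the thresholds of 2 and 4 CPM; no point of one genotype reaches the other's side, as the rule requires, and Padi4 lies farthest to the right.

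Among the cell-cycle genes, Neil3, a DNA glycosylase that repairs lesions during replication, had 0.937, 1.65 and 1.05 CPM in the Runx3 +/WRPW libraries, against 14.98 and 13.24 CPM in the Runx3 +/+ libraries, an 11.6-fold ratio of means. Kif18b, a kinesin that shortens astral microtubules in mitosis, had 1.58, 1.40 and 1.56 CPM in Runx3 +/WRPW, against 11.3 and 13.5 CPM in Runx3 +/+. By the rule the genotypes could not overlap for either gene. The libraries within a genotype lay close together for Kif18b in particular. Kif2c, the kinesin that takes apart microtubules at centromeres, had 1.49, 1.65 and 1.51 CPM in Runx3 +/WRPW, against 7.40 and 7.52 CPM in Runx3 +/+. Its 2 Runx3 +/+ libraries were almost equal, at 7.46 ± 0.0894 CPM (SD, n = 2).

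Nek2, a kinase that separates centrosomes, had 1.37, 1.65 and 1.10 CPM in Runx3 +/WRPW, against 7.81 and 10.8 CPM in Runx3 +/+. Sgol1, the shugoshin that protects cohesin at centromeres, had 1.62, 1.65 and 1.37 CPM in Runx3 +/WRPW, against 6.79 and 7.44 CPM in Runx3 +/+. Ska3, part of the complex that couples kinetochores to microtubules, had 1.21, 1.78 and 1.01 CPM in Runx3 +/WRPW, against 5.27 and 6.66 CPM in Runx3 +/+. For all 3 genes the lowest Runx3 +/+ library was above every Runx3 +/WRPW library, as the rule requires. Runx3 +/WRPW library 2 was the highest of the mutant libraries for each of them. The same library was the highest for 11 of the 13 cell-cycle genes, with no share over all genes to set beside this.

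Mxd3, a Max partner expressed in dividing cells, had 1.28, 1.78 and 1.46 CPM in Runx3 +/WRPW, against 11.7 and 11.6 CPM in Runx3 +/+. E2f7, an atypical E2F that represses E2F target genes, had 1.10, 1.72 and 1.01 CPM in Runx3 +/WRPW, against 5.78 and 5.01 CPM in Runx3 +/+. Ankle1, a nuclease that cuts chromatin bridges, had 1.19, 1.85 and 1.65 CPM in Runx3 +/WRPW, against 8.69 and 4.78 CPM in Runx3 +/+. Ankle1 was the cell-cycle gene whose Runx3 +/+ libraries were farthest apart, with library 1 the higher.

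Pbk (a mitotic kinase), Ttk (the spindle checkpoint kinase also called Mps1), Mastl (the Greatwall kinase that keeps PP2A inactive in mitosis) and Troap (a spindle-associated protein) complete the group. Their means were 0.563 to 1.60 CPM in Runx3 +/WRPW and 4.74 to 6.70 CPM in Runx3 +/+. Troap had the lowest level of them in the mutant libraries, with 0.503, 0.636 and 0.549 CPM, against 4.58 and 4.90 CPM in Runx3 +/+. Ratios over the 13 genes ran from 3.356 (Mastl) to 11.6 (Neil3), with a median of 4.81, whereas the other 13 genes had a median of 9.27.

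The cell-cycle genes in the rule belong to a much wider set. Lists of mitosis and cytokinesis genes and of DNA replication and repair genes from textbook knowledge held 9 of the 26 genes. Mxd3, Ankle1, Pbk and Mastl are on neither. The lists were chosen with earlier results of these data known, so their counts below are not a blind test. Over all 13666 genes tested with edgeR's quasi-likelihood test, 1855 (13.6%) passed an adjusted p of 0.05, 1002 (7.33%) of them lower in Runx3 +/WRPW and 853 (6.24%) higher, with a median log2 fold change of 0.02. The count of 1855 was 542 and 277 without Runx3 +/+ library 1 or 2, and 768 and 950 without Runx3 +/WRPW library 1 or 3. Of the 69 other mitosis and cytokinesis genes tested, 61 fell, none rose and 8 did not pass, with a median log2 fold change of -2.08. Of the 56 other DNA replication and repair genes, 43 fell, none rose and 13 did not pass, with a median of -0.75. In either list no gene rose even at an unadjusted p under 0.05, and none rose by DESeq2. The counts rest in part on single libraries: 40 mitosis and 17 replication genes fell without Runx3 +/+ library 1, and 28 and 12 without Runx3 +/+ library 2, while without Runx3 +/WRPW library 2 the counts were 63 and 39.

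The proliferation marker Mki67 averaged 32.0 ± 1.41 CPM in Runx3 +/WRPW and 245 ± 5.01 CPM in Runx3 +/+ (SD, n = 3 and 2), a log2 fold change of -2.97 ± 0.06 (SE, edgeR adjusted p = 5.19e-05). Top2a, the topoisomerase that untangles replicated DNA, averaged 34.2 ± 1.45 CPM in Runx3 +/WRPW and 230 ± 14.5 CPM in Runx3 +/+ (edgeR adjusted p = 7.08e-05). Ncapg, a subunit of condensin, averaged 2.38 ± 0.147 CPM in Runx3 +/WRPW and 15.8 ± 1.43 CPM in Runx3 +/+ (edgeR adjusted p = 0.000736). Among replication genes the ribonucleotide reductase subunit Rrm2, the origin licensing factor Cdc6 and the methylation reader Uhrf1 fell by 2.88, 1.84 and 1.65 on the log2 scale (edgeR adjusted p = 7.08e-05, 0.000956 and 0.00101). These 6 genes kept their call when any one library was left out.

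The thresholds picked the 9 genes of these lists from the low end of both lists. Their median mean level was 1.35 CPM in Runx3 +/WRPW and 7.12 CPM in Runx3 +/+. The other mitosis genes had a median of 4.25 CPM in Runx3 +/WRPW and 15.5 CPM in Runx3 +/+, and the other replication genes 15.5 CPM in Runx3 +/WRPW and 28.6 CPM in Runx3 +/+. Of the 69 other mitosis genes, 63 missed the rule because a Runx3 +/WRPW library was above the maximum, 5 because a Runx3 +/+ library was below the minimum and 1 for both, and all 56 other replication genes missed it through the maximum. The median ratio was 4.81 for the 9 genes and 4.13 for the other mitosis genes. Among 33 other cell-division genes within the same range of Runx3 +/+ means the median ratio was 2.69, a difference that the rule itself fixes.

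**Figure D2:**
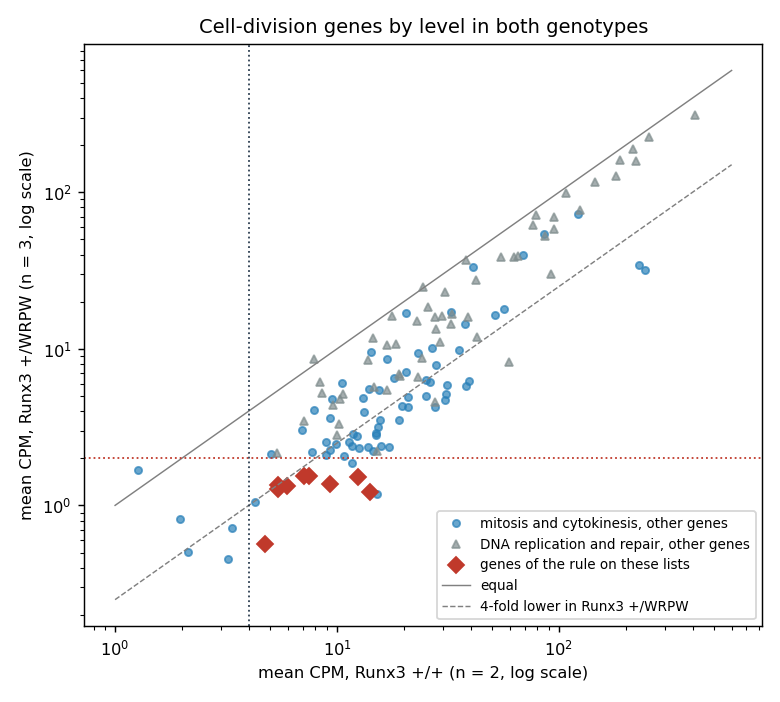
Mean CPM of cell-division genes in Runx3 +/WRPW (vertical, n = 3) and Runx3 +/+ (horizontal, n = 2), both on log scales, with the genes of the rule marked apart from the other mitosis and replication genes. The 9 marked genes occupy the low corner bounded by the dotted thresholds of 2 and 4 CPM, at the end of a cloud in which 68 of 69 other mitosis genes have the lower mean in Runx3 +/WRPW.

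Relatives of the cell-cycle genes, found by a shared symbol stem, were tested in the same fit. Of 26 other kinesins tested, 8 fell (30.8%, against 7.33% of all genes) and 18 did not pass. Kif15 averaged 5.14 ± 0.792 CPM in Runx3 +/WRPW and 30.9 ± 0.426 CPM in Runx3 +/+, and Kif4 averaged 2.82 ± 0.461 CPM in Runx3 +/WRPW and 15.04 ± 0.765 CPM in Runx3 +/+ (SD, n = 3 and 2; edgeR adjusted p = 0.000736 and 0.00145). Of 7 other E2f genes, 3 fell (42.9%): E2f2, E2f1, an activator of replication genes, and E2f8, the atypical partner of E2f7. E2f1 averaged 16.7 ± 1.23 CPM in Runx3 +/WRPW and 33.0 ± 1.19 CPM in Runx3 +/+ (edgeR adjusted p = 0.00309), and E2f2 averaged 4.26 ± 1.82 CPM in Runx3 +/WRPW and 68.4 ± 43.4 CPM in Runx3 +/+ (edgeR adjusted p = 0.00560). E2f8 averaged 2.22 ± 0.969 CPM in Runx3 +/WRPW and 15.1 ± 1.75 CPM in Runx3 +/+ (edgeR adjusted p = 0.00491, but 0.0567 and 0.0941 without Runx3 +/+ library 1 or 2).

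Sgol2a fell by 1.41 on the log2 scale (edgeR adjusted p = 0.0328, and 0.0653 to 0.250 without Runx3 +/WRPW library 1 or 3 or either Runx3 +/+ library). Mxd1 and Nek8 fell by 0.65 and 0.51 (edgeR adjusted p = 0.0301 and 0.0223), and both calls were lost without any single library except Runx3 +/WRPW library 2. The partners of Ska3 did not pass: Ska1 had a log2 fold change of -2.11 (edgeR adjusted p = 0.0897) and Ska2 one of -0.29 (edgeR adjusted p = 0.156). Neil1 at 0.06 and Ankle2 at 0.07 did not pass either (edgeR adjusted p = 0.752 and 0.521).

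Markers of other thymocytes were read beside these genes. The summed level of 9 markers of double-positive thymocytes was 271 to 297 CPM in Runx3 +/WRPW and 305 to 341 CPM in Runx3 +/+. Its defining genes were near the floor: Rag1 stood at no more than 0.641 CPM and Ptcra at no more than 0.0915 CPM in any library. Ptcra was at 0 in both Runx3 +/+ libraries. The 9 markers of CD8 single-positive thymocytes summed to 6863 to 7507 CPM in Runx3 +/WRPW and 8602 to 8668 CPM in Runx3 +/+. Among them Itgae had 52.3 to 64.7 CPM in Runx3 +/WRPW, against 717 and 857 CPM in Runx3 +/+. The means of Cd8a and Runx3 were higher in Runx3 +/WRPW, and those of the other markers were lower. The share of CD8 single-positive cells was not tested.

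Of the T cell regulators, Foxp3, the transcription factor that defines regulatory T cells, had 1.19, 0.700 and 0.412 CPM in the Runx3 +/WRPW libraries, against 5.04 and 9.44 CPM in the Runx3 +/+ libraries. The inhibitory receptor Ctla4 had 1.58, 1.15 and 1.10 CPM in Runx3 +/WRPW, against 4.16 and 8.42 CPM in Runx3 +/+. Dusp4, a nuclear phosphatase of MAP kinases, had 1.58, 1.02 and 1.19 CPM in Runx3 +/WRPW, against 10.7 and 12.7 CPM in Runx3 +/+. In all 3 genes the highest mutant library was Runx3 +/WRPW library 1 and the higher wild-type library was Runx3 +/+ library 2, which held 2.02 times as much Ctla4 as library 1.

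Cd4 moved with the same Runx3 +/+ library, at 0.160, 0.382 and 0.0458 CPM in Runx3 +/WRPW and 0.462 and 5.25 CPM in Runx3 +/+ (edgeR adjusted p = 0.0743). The 7 markers of CD4 and regulatory T cells, among them Foxp3 and Ctla4 themselves, summed to 179 to 333 CPM in Runx3 +/WRPW and 206 to 328 CPM in Runx3 +/+, and none was at 0 in any library. Ikzf2 made up most of that sum. The interleukin-2 receptor chain Il2ra had 6.44, 4.71 and 4.07 CPM in Runx3 +/WRPW, against 3.74 and 3.88 CPM in Runx3 +/+ (edgeR adjusted p = 0.377). The part of CD4 or regulatory T cells in the Foxp3 and Ctla4 levels was not tested.

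Other genes of regulatory and helper T cells were tested in the same fit. Of 18 tested, 1 fell (5.56%, against 7.33% of all genes), 2 rose (11.1%, against 6.24%) and 15 did not pass, with a median log2 fold change of -0.03. DESeq2 called 5 lower and 3 higher, and edgeR had 7 lower and 3 higher at an unadjusted p under 0.05. The co-stimulatory receptor Tnfrsf9 fell by 0.96, while Ikzf4 rose by 0.80 (edgeR adjusted p = 0.00483 and 0.00490); both calls were lost without either Runx3 +/+ library, at 0.0592 to 0.112. Izumo1r, formerly named Folr4, rose by 1.62 (edgeR adjusted p = 0.0487, and 0.0934 to 0.110 without any one Runx3 +/WRPW library). The nearest relatives of Foxp3 among those tested, Foxp1 and Foxp4, had log2 fold changes of -0.14 and 0.03 (edgeR adjusted p = 0.268 and 0.869). Of 14 other Dusp genes, 2 fell (14.3%, against 7.33% of all genes) and 12 did not pass. Dusp5 and Dusp7 fell by 1.25 and 1.17 (edgeR adjusted p = 0.00963 and 0.00331). The Dusp5 call was lost without Runx3 +/+ library 2, at a log2 fold change of -1.02.

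Of the enzymes and secreted proteins, Padi4, which converts arginine of histones and other proteins to citrulline, had 0.663, 1.46 and 1.14 CPM in Runx3 +/WRPW, against 116 and 29.3 CPM in Runx3 +/+. It lies on chromosome 4 from 140745508 to 140774239. The genotypes were far apart, and the 2 Runx3 +/+ libraries also differed 3.98-fold from each other, with library 1 the higher. The 9 granulocyte markers, a cell type known for Padi4, summed to 0.137 to 0.827 CPM in Runx3 +/WRPW and 0.118 to 0.139 CPM in Runx3 +/+, and 7 or 8 of them were at 0 in each Runx3 +/+ library. Padi2, a second enzyme of the family, averaged 29.8 ± 3.75 CPM in Runx3 +/WRPW and 57.1 ± 6.08 CPM in Runx3 +/+ (SD, n = 3 and 2; edgeR adjusted p = 0.00701, and 0.0919 without Runx3 +/+ library 2). Padi1, 38742 bases from Padi4, had a log2 fold change of 0.01 (edgeR adjusted p = 0.996).

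Podnl1, a secreted leucine-rich repeat protein, had 1.46, 1.34 and 1.10 CPM in Runx3 +/WRPW, against 8.27 and 20.8 CPM in Runx3 +/+. Man1c1, a Golgi mannosidase that trims N-glycans, had 0.640, 1.53 and 0.641 CPM in Runx3 +/WRPW, against 6.98 and 15.7 CPM in Runx3 +/+. Tha1, a threonine aldolase, had 1.17, 1.78 and 0.641 CPM in Runx3 +/WRPW, against 6.75 and 10.97 CPM in Runx3 +/+. All 3 were higher in Runx3 +/+ library 2 than in library 1, opposite to Padi4. No Runx3 +/WRPW library reached a Runx3 +/+ library, as the rule requires. In GENCODE M21, 9 of the 26 genes overlap a gene on the opposite strand, introns included: Podnl1 shares 10164 bases with Cc2d1a, Kif18b 19617 with Gm26668, Foxp3 15568 with Gm36995, Chn2 33335 with Gm15527 and Tha1 2277 with Gm11725. No strand setting of the counts is stated, so reads of such pairs could not be told apart. The 8 markers of stroma and endothelium summed to 78.1 to 101 CPM in Runx3 +/WRPW and 144 to 185 CPM in Runx3 +/+, most of it Pecam1, and their part in Podnl1 was not tested.

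Snx9, a sorting nexin that bends membranes in endocytosis, had 0.457, 0.445 and 0.0458 CPM in Runx3 +/WRPW, against 4.11 and 13.5 CPM in Runx3 +/+. Arhgef17, a guanine nucleotide exchange factor, had 0.846, 1.08 and 1.65 CPM in Runx3 +/WRPW, against 8.23 and 8.97 CPM in Runx3 +/+. Snx9 had the lowest mutant mean of the 26 genes and a 3.29-fold difference between its Runx3 +/+ libraries, while those of Arhgef17 differed by only 1.09-fold. Chn2, a GTPase-activating protein of Rac, averaged 0.613 ± 0.627 CPM in Runx3 +/WRPW and 5.20 ± 1.07 CPM in Runx3 +/+ (SD, n = 3 and 2). Its mutant level came mainly from Runx3 +/WRPW library 2, at 1.34 CPM, with 0.274 and 0.229 CPM in libraries 1 and 3. Of 26 other sorting nexins 3 fell (11.5%, against 7.33% of all genes) and 23 did not pass. Of 18 other Arhgef genes 4 fell (22.2%), 1 rose (5.56%, against 6.24% of all genes) and 13 did not pass. Those with the smallest p were Snx4, which fell by 0.47, and Arhgef18, which fell by 0.68 (edgeR adjusted p = 0.00963 and 0.00511; both lost without Runx3 +/+ library 2, at 0.131 and 0.0674, and Snx4 also without library 1, at 0.105).

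The 3 genes with close copies could share reads with them, and their levels are uncertain for that reason. Apol9b averaged 0.696 ± 0.337 CPM in Runx3 +/WRPW and 6.38 ± 1.83 CPM in Runx3 +/+, while its copy Apol9a had a log2 fold change of -0.01 (edgeR adjusted p = 0.996). Adam6b, which lies on chromosome 12 within the immunoglobulin heavy-chain region, averaged 0.603 ± 0.210 CPM in Runx3 +/WRPW and 6.52 ± 2.35 CPM in Runx3 +/+ (SD, n = 3 and 2). Its copy Adam6a had 2, 2 and 0 counts in Runx3 +/WRPW and 15 and 8 counts in Runx3 +/+, too few to be tested. The 7 B cell markers summed to 4.39, 13.4 and 3.25 CPM in Runx3 +/WRPW and 9.66 and 9.60 CPM in Runx3 +/+. Most of the Runx3 +/+ sum was Cd79b, which had 2.19, 1.85 and 1.78 CPM in Runx3 +/WRPW, against 7.49 and 7.40 CPM in Runx3 +/+ (edgeR adjusted p = 0.00426, and 0.0829 and 0.113 without Runx3 +/+ library 1 or 2), while Pax5 was at 0 in Runx3 +/+ library 1. The part of B cells in the Adam6b level was not tested. Bambi-ps1 averaged 1.66 ± 0.384 CPM in Runx3 +/WRPW and 4.82 ± 0.442 CPM in Runx3 +/+, and the gene it derives from, Bambi, had a log2 fold change of 0.35 (edgeR adjusted p = 0.668).

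The spread between the 2 Runx3 +/+ libraries, on which the rule sets no condition beyond the minimum, differed among the 26 genes. The median absolute log2 ratio of library 2 to library 1 was 0.38 for the 26 genes, 0.12 for all 9801 genes at the minimum and 0.19 for the 2541 of those with a Runx3 +/+ mean of at most 20 CPM. A difference of over 2-fold was seen in 5 of the 26 genes (19.2%), against 1.24% and 2.13% of these wider sets. The 5 were Padi4, Snx9, Podnl1, Man1c1 and Ctla4. Of the 13 cell-cycle genes 12 were within 1.5-fold, with a median ratio of 1.13-fold (absolute log2 ratio 0.18). The wider sets had 95.4% and 90.9% of their genes under 1.5-fold, so the cell-cycle genes were close to them. Of the other 13 genes, 9 exceeded 1.5-fold, with a median of 1.68-fold. Library 2 was the higher for 18 of the 26, and the share of all genes for which it was the higher was not computed. These are descriptions of a pair of libraries, with no test.

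**Figure D3:**
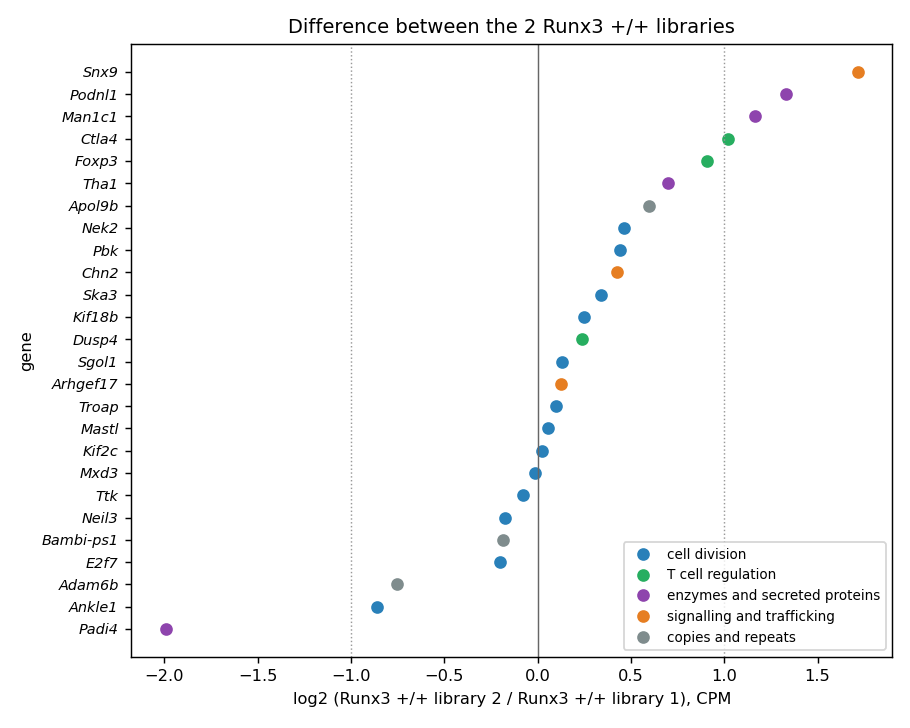
Log2 ratio of Runx3 +/+ library 2 to Runx3 +/+ library 1 for each of the 26 genes, in CPM, with cell-cycle genes marked apart. The cell-cycle genes lie within 1.5-fold of equal except Ankle1. So do 90.9% of the 2541 genes at the minimum with a Runx3 +/+ mean of at most 20 CPM. Padi4 lies far to the left at 3.98-fold higher in library 1, and Snx9 far to the right at 3.29-fold higher in library 2.

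Just inside the thresholds were Snx9, Ctla4 and Chn2, with a lowest Runx3 +/+ library of 4.11, 4.16 and 4.44 CPM, and Bambi-ps1, Mastl and Ttk, with a highest Runx3 +/WRPW library of 1.97, 1.92 and 1.91 CPM. Just outside on the wild-type side were Grasp, Ascl2 and Ska1, with a lowest Runx3 +/+ library of 3.93, 3.74 and 3.72 CPM. On the mutant side Depdc1b, Iqgap3 and Dennd2c each reached 2.04 CPM in Runx3 +/WRPW library 2. Their lowest Runx3 +/+ libraries were at 12.6, 5.33 and 8.66 CPM.

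The test was also read for genes related to the 26 by name or place. Over all symbol stems shared with the 26 genes, 128 relatives were tested. Of these, 25 fell (19.5%, against 7.33% of all genes), 2 rose and 101 did not pass, with a median log2 fold change of -0.04. The relatives that fell include genes already counted on the mitosis and replication lists: all 8 kinesins, Sgol2a, E2f1 and E2f8. Within 100 kb, 24 of the 26 genes had a tested nearest gene on at least 1 side, 40 in all, of which 7 fell (17.5%), 2 rose and 31 did not pass, with a median of -0.10. Among the 32 that do not overlap, 5 fell (15.6%) and 2 rose. Without Runx3 +/+ library 2 no neighbour fell in edgeR, although 8 were lower at an unadjusted p under 0.05, and 8 relatives fell; without Runx3 +/+ library 1 these counts were 3 and 12, without Runx3 +/WRPW library 1 they were 3 and 14, and without Runx3 +/WRPW library 3 they were 4 and 15.

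The neighbour with the largest fall was Esco2, a cohesin acetyltransferase 1205 bases from Pbk, at 2.23 ± 1.21 CPM in Runx3 +/WRPW and 14.5 ± 2.30 CPM in Runx3 +/+ (SD, n = 3 and 2; edgeR adjusted p = 0.00867). Birc5, which encodes survivin and lies 12206 bases from Tha1, fell by 2.17 on the log2 scale (edgeR adjusted p = 0.0308). Both are on the mitosis list, and both calls were lost without either Runx3 +/+ library, at 0.0787 to 0.256, and that of Birc5 also without Runx3 +/WRPW library 1 or 3, at 0.0526 and 0.0939. Ccdc22, which overlaps Foxp3 by 1435 bases on the opposite strand, and Dcaf15, 21131 bases from Podnl1, fell by 0.68 and 0.48 (edgeR adjusted p = 0.00707 and 0.00686, and 0.0820 and 0.0953 without Runx3 +/+ library 2). Lpgat1, beside Nek2, rose by 0.49 (edgeR adjusted p = 0.0273, and 0.0814 to 0.272 without any single library except Runx3 +/WRPW library 2).

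Calls among genes of effector function went in differing directions. Over all tested genes 7.33% fell and 6.24% rose in edgeR. Of 22 cytotoxic and cytokine genes 2 rose (9.09%) and none fell in edgeR or DESeq2. At an unadjusted p under 0.05, 2 of them were lower in edgeR and 4 in DESeq2. Those that rose were Hopx, by 1.41, and Ctsw, by 0.52 (edgeR adjusted p = 0.0107 and 0.0125, both lost without either Runx3 +/+ library, at 0.0895 to 0.142, and Ctsw also without Runx3 +/WRPW library 1, at 0.0605). Of 10 NK-type receptors 3 fell (30%) and 1 rose (10%), with a median log2 fold change of 0.21. Klrd1, Cd160 and Klrc1 fell by 3.67, 2.39 and 3.09 (edgeR adjusted p = 0.00360, 0.0116 and 0.0280), and each call was lost without at least one Runx3 +/+ library, at 0.0691 to 0.646, and that of Klrc1 also without Runx3 +/WRPW library 1 or 3, at 0.103 and 0.0713. Of 25 S100, annexin and cytoskeletal genes 9 fell (36%) and 1 rose (4%). Among them Vim and Emp3 fell by 1.16 and 1.76 (edgeR adjusted p = 0.00176 and 0.00240).

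Of 27 integrins and adhesion molecules 6 fell (22.2%, against 7.33% of all genes) and 5 rose (18.5%, against 6.24%). Itgae, the integrin CD103, fell by 3.80 (edgeR adjusted p = 0.000189). Of 43 chemokine and other G protein-coupled receptors 9 fell (20.9%) and 9 rose (20.9%). The egress receptor S1pr1 fell by 3.67 and Ccr8 rose by 4.43 (edgeR adjusted p = 0.000890 and 0.00120). Over all 8 lists 132 of 268 genes fell (49.3%) and 20 rose (7.46%). Without Runx3 +/+ library 1 or 2, 70 and 49 list genes fell, among them 5 and 2 of the S100, annexin and cytoskeletal genes, 3 and 2 of the integrins and adhesion molecules and 4 and 4 of the receptors. Without Runx3 +/WRPW library 1, 3 integrins and adhesion molecules and 5 receptors fell, and without Runx3 +/WRPW library 3, 5 receptors. A single cytotoxic or cytokine gene (1 of 22) fell once Runx3 +/WRPW library 2 was left out.

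**Figure D4:**
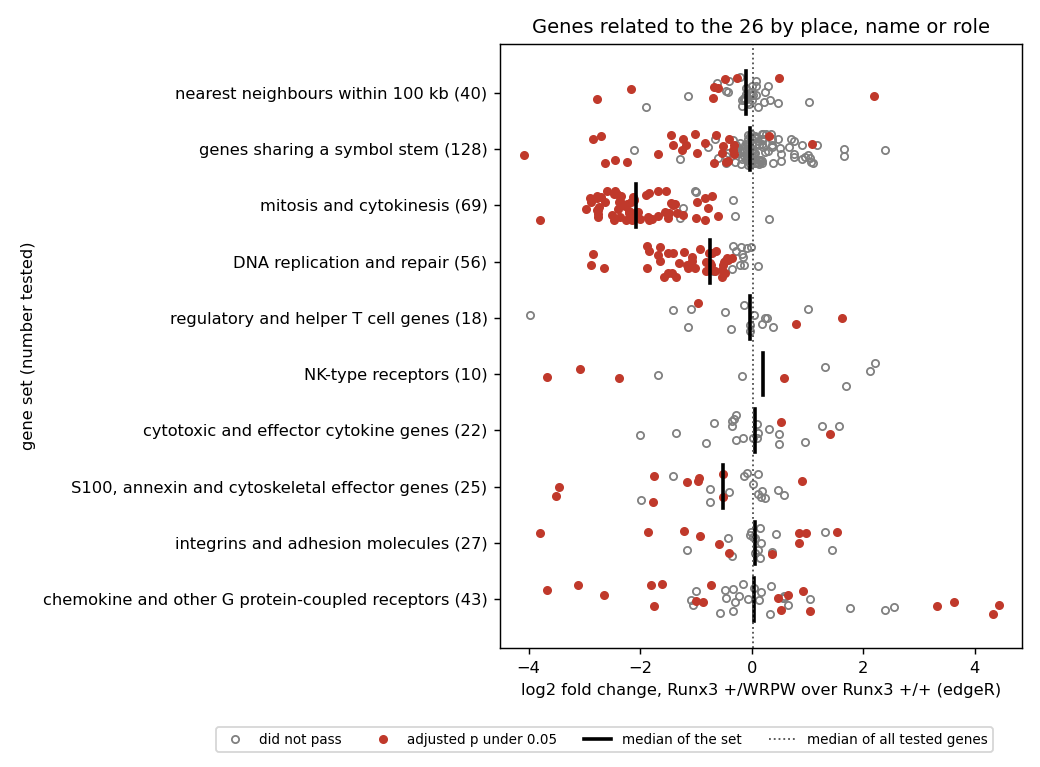
Fitted log2 fold changes (Runx3 +/WRPW over Runx3 +/+) of tested genes related to the 26 genes by place, symbol or role, one row per set with the number tested in brackets; filled points passed an adjusted p of 0.05, bars are set medians and the dotted line is the median of all tested genes. The mitosis set is centred at -2.08 and the replication set at -0.75, while the neighbours and relatives are centred at -0.10 and -0.04.

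Promoter sequences of 20 of the 26 genes were read; those of Dusp4, Pbk, Snx9, Podnl1, Arhgef17 and Bambi-ps1 were not analysed here. A CHR word was held by 6 of the 9 list genes of cell division (66.7%) and by 3 of the 11 others (27.3%), against 50.5% of the other cell-division genes and 14.5% of all tested genes with a promoter. A CCAAT box was held by 66.7% and 36.4%, against 67.0% of the other cell-division genes and 39.1% of all tested genes. E2f7 was the only one with an E2F word (11.1% of the 9), against 18.6% of the other cell-division genes and 3.11% of all tested genes. TTCGAA reads the same on both strands and counts once. The 11 others include the cell-cycle genes Mxd3, Ankle1 and Mastl, which are on neither list. The 3 of them with a CHR word were Ankle1, Foxp3 and Ctla4.

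The Runx core word was held by Kif18b and Kif2c among the 9 list genes (22.2%) and by Man1c1 and Adam6b among the 11 others (18.2%). It was held by 21.4% of all tested genes and by 22.2% of all promoters, and a window without these letters says nothing of Runx3 binding elsewhere. The short word GGAA, the core of ETS sites, was in all 20 promoters and in 95.8% of those of all tested genes. Median GC content was 60.3% for the 20 promoters and 60.3% for all tested genes. The median exon length was 3.57 kb for 25 of the 26 genes with a value, against 4.27 kb for all tested genes.

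**Figure D5:**
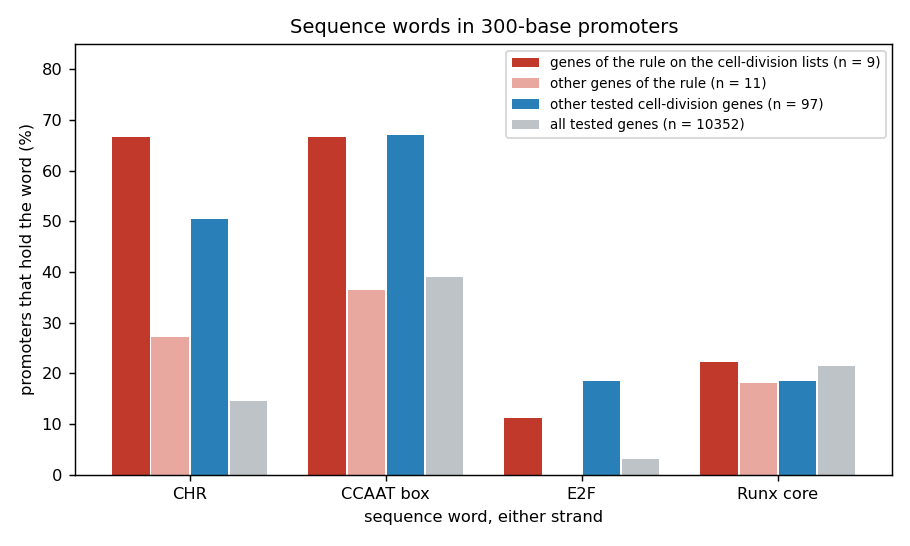
Share of 300-base promoters that hold each sequence word on either strand, in percent, for the 9 list genes of cell division, the 11 other genes of the rule, the other cell-division genes and all tested genes. The CHR bar is at 66.7% for the 9 genes and 14.5% for all tested genes, whereas the Runx core bars lie between 18.2% and 22.2%.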

How the data were processed

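Total RNA of sorted mature CD8 single-positive thymocytes was sequenced as 3 Runx3 +/WRPW and 2 Runx3 +/+ libraries, grouped by the genotype label. The authors deposited unnormalized read counts for 35976 gene symbols. The submitters' processing notes name featureCounts 2.0.8, HISAT2 2.2.1, cutadapt 4.0, edgeR 3.36.0 and the genome build mm10. For annotation, strand and multi-mapping reads, settings were not given in the sources used here. Column names in 2 files (Runx3 +/+ library 2, which carries another number, and Runx3 +/WRPW library 2, named for a program) differ from the labels, so samples were assigned by their records.

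CPM was the count over the library total. In the lowest library 3 counts are worth 0.191 CPM and in the deepest 0.0686 CPM, which covers counting error only. All genes passing filterByExpr (minimum count 10) were tested by edgeR's quasi-likelihood functions glmQLFit and glmQLFTest after TMM scaling (edgeR 4.0.16, R 4.3.3), with calls made under an adjusted p (Benjamini-Hochberg) of 0.05; fold changes are Runx3 +/WRPW over Runx3 +/+. The test was checked on simulated data. The members and gene lists were chosen with earlier results of these data known. Values per library are given for the 15 members with the highest Runx3 +/+ mean and for up to 5 members per list. Other genes are the 3 of each list, the 2 of each symbol stem and the 5 neighbours with the smallest p. Some genes beyond these are named, chosen after their values were seen. Lgals1, which met the thresholds, was left out of the list counts. Neighbours, overlaps and exon lengths came from RefSeq for GRCm38.p6 and GENCODE M21, and promoters from RefSeq. Alternatives were other thresholds, TMM-scaled CPM, RLE factors, DESeq2 1.42.0, no filter, a replicate block and leaving out each library.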

Additional observations from a re-analysis of the deposited data

How the results depend on the processing

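The 26 genes depended on the thresholds: 43 genes met the rule at a minimum of 3 CPM, 52 at a maximum of 3 CPM and 3 (Snx9, Adam6b and Troap) at a maximum of 1 CPM, against 19 at a minimum of 5 CPM and 29 on TMM-scaled CPM. With each library left out in turn the number was 26 to 45, where all 26 are kept by construction, since a library left out only removes a condition; it was 45 without Runx3 +/WRPW library 2 and 42 without Runx3 +/+ library 1. Over all genes 1855 were called, against 1079 with no low-count filter, 754 with the replicate block, 2705 by DESeq2 and 277 to 1431 with 1 library left out. The 132 list genes that fell became 49 to 134 with 1 library left out. The 25 relatives that fell became 13 with the replicate block and 8 to 22 with 1 library left out, and the 7 neighbours 4 and 0 to 6. The cause of these changes was not tested, though a fit without a library has fewer samples, and without one of the Runx3 +/+ libraries the lone sample is assumed to vary like the others. Deviations of same-numbered libraries were almost uncorrelated (correlation -0.0486 for number 1 and 0.00332 for number 2). With only 2 Runx3 +/+ libraries, which deviate as mirror images, these values cannot show whether same-numbered libraries were processed together. The block pairs libraries by their number. In the shallowest library, Runx3 +/WRPW 2, values under 2 CPM rest on at most 31 counts for the 26 genes.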

Other observations

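The genes that met the thresholds but were left out by name include Ggt1, which opens the breakdown of glutathione, at 1.01, 1.59 and 1.10 CPM in Runx3 +/WRPW, against 92.5 and 76.7 CPM in Runx3 +/+. Lgals1, the lectin galectin-1, had 1.78, 1.34 and 1.37 CPM in Runx3 +/WRPW, against 47.1 and 66.6 CPM in Runx3 +/+. Both were far apart between genotypes, by more than their Runx3 +/+ libraries differed from each other.

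Leaving out Runx3 +/WRPW library 2 added 19 genes, of which 7 are on the cell-division lists. Lrrc75b had 0.160, 2.48 and 0.0458 CPM in Runx3 +/WRPW libraries 1, 2 and 3, against 10.2 and 12.1 CPM in Runx3 +/+. Nrg2, a neuregulin, had 1.99, 7.45 and 1.24 CPM in Runx3 +/WRPW, against 13.6 and 19.8 CPM in Runx3 +/+. Both were kept out of the rule by library 2 alone.

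A few genes were high in only 1 of the Runx3 +/+ libraries. St6galnac2, a sialyltransferase, had 0.868, 0.891 and 0.732 CPM in Runx3 +/WRPW, against 119 CPM in Runx3 +/+ library 1 and 0.627 CPM in library 2. St6galnac1, of the same family, had 0, 0.318 and 0 CPM in Runx3 +/WRPW, against 6.66 CPM in Runx3 +/+ library 1 and 0 in library 2. Library 1 alone was high for both, and it was also the higher library for Padi4. Every gene named here was picked with its values in view.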
